A study of Drosophila melanogaster with 4 samples.

Results

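The centromere-proximal ends of 4 Drosophila melanogaster chromosome arms, 2L, 3L, 3R and X, were examined for H3K27me1, histone H3 carrying a single methyl group on lysine 27. The members were the authors' regions of significant enrichment, called clusters here, whose midpoint lay above 21000000 on 2L, above 22500000 on 3L, above 20400000 on X, or at or below 2000000 on 3R (release 5 coordinates). These spans hold 2.01, 2.04, 2.02 and 2.00 Mb of assembled sequence. They contained 299 of the 6501 clusters of ChIP replicate 1, 305 of the 6601 of replicate 2 and 453 of the 9662 of the authors' list for the replicate set. They were set against the rest of the same arms, which held 4773, 4809 and 7220 clusters. Chromatin came from nuclei of adult heads of wild-type Oregon-R flies (Oregon-R-modENCODE), mixed adults from population cages, and was precipitated with a Millipore antibody to H3K27me1. The series comprises 2 ChIP and 2 Input libraries of the same strain, stage and genotype, with no second condition. Heads hold neurons, glia and other cells together, so a cluster cannot be assigned to a cell type. The labels do not say whether the replicates came from separate fly collections, so the spread between them may be technical. The lists hold no read counts, so the depth behind them is unknown. The centromere end of 2R and chromosome 4 were not among the members.

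Towards its centromere, each fly arm passes from gene-rich euchromatin into pericentric heterochromatin, which is rich in transposons and repeats and is packaged with methylated histone H3 lysine 9 and the protein HP1. The genes that lie there are sparse and often long. Methylation of lysine 27 is laid down by E(z), the enzyme of Polycomb repressive complex 2, and the monomethyl state is the first step towards the dimethyl and the repressive trimethyl state. In mouse cells the monomethyl state is known from pericentric heterochromatin and from the bodies of transcribed genes. The base of 2L carries the tandem histone genes and the base of X the flamenco piRNA locus. No gene was placed on a release 5 coordinate here, so regions are given by position.

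H3K27me1 clusters were sparser at the centromere ends of 2L, 3L and X than along the rest of these arms. They were denser at the centromere end of 3R. Whether reads align uniquely at the ends was not tested, so sequence without a cluster need not lack the mark. On 3L, 6.83% of the end lay in clusters in replicate 1, against 22.7% of the rest of the arm. In replicate 2 the shares were 6.43% of the 3L end and 22.4% of the rest. The 3L end thus had 0.294 ± 0.0101 times the covered share of its arm (SD, n = 2), the lowest ratio of the 4 arms. Clusters took up 7.25% of the X end in replicate 1, against 15.5% of the rest of X. In replicate 2 they took up 5.58% of the X end, against 11.8%. Its ratio was 0.470 ± 0.0029 (SD, n = 2), although replicate 2 covered less of X in both places. The 2L end had 15.0% and 13.7% of its length in clusters in replicates 1 and 2, against 19.1% and 18.7% of the rest of 2L, a ratio of 0.759 ± 0.0379 (SD, n = 2). The 3R end was covered to 31.1% and 29.7%, against 20.5% and 20.5% of the rest of 3R, a ratio of 1.49 ± 0.0493 (SD, n = 2). On each arm both values of the end lay on the same side of both values of the rest.

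**Figure D1:**
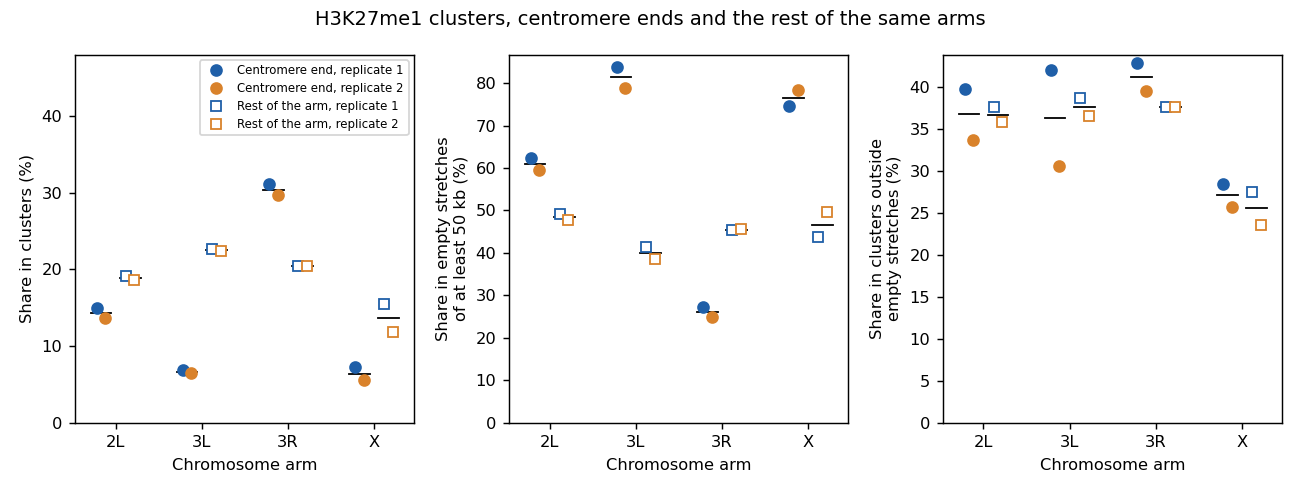
Share of sequence in H3K27me1 clusters (left, %), in stretches of at least 50 kb without a cluster (middle, %) and in clusters outside those stretches (right, %), for the centromere end and the rest of each arm. Filled circles are centromere ends, open squares the rest, blue replicate 1, orange replicate 2, and black lines the mean of both; the 3R end stands above its arm in the left panel and the other 3 ends below theirs.

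Over all 4 ends the covered share averaged 14.4% ± 0.843, against 19.1% ± 0.697 in the rest of the arms (SD, n = 2 each). The difference was -4.69 ± 0.146 percentage points, and it was negative in 2 of 2 libraries. An exact two-sided sign-flip permutation test over the 2 libraries gave p = 0.5, the smallest value that 2 libraries allow, so no comparison here can pass a test across libraries. Clusters and 100 kb steps within a library are not replicates and were not tested. The pooled value joins arms that differ in direction and is therefore given beside the values per arm. In the authors' replicate-set list each arm differed in the same direction as in the replicates. There 19.7% of the 2L end was covered against 28.8% of the rest, and 10.98% against 33.7% on 3L. On 3R it was 43.4% against 30.2%, and on X 15.0% against 27.8%. That list was made from the same libraries and is no independent check.

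Cut into windows of 2 Mb from the centromere end, the end of 3R was the most covered of the 13 windows of its arm in all 3 lists. The other 12 windows of 3R held between 13.1% and 28.9% in replicate 1, and between 12.7% and 28.7% in replicate 2. The ends of 3L and X were the least covered windows of their arms in all 3 lists, of 12 and 11 windows. The other windows of 3L began at 12.2% and 11.7% in the replicates, and those of X at 11.6% and 7.74%. The end of 2L ranked 3rd from the least covered of 11 windows in replicate 1 and 2nd in replicate 2, so its low share was not the lowest of its arm there. In the replicate-set list it was the least covered, at 19.27%, with the next window at 19.29%.

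Clusters were also fewer per length at the 3 sparse ends. The 3L end held 20.6 and 24.0 clusters per Mb in replicates 1 and 2, against 58.9 and 62.0 in the rest of 3L. The X end held 23.2 and 18.8, against 50.8 and 42.3 in the rest of X. The 2L end held 33.8 and 37.8, against 50.5 and 53.1. The 3R end held 71.0 clusters per Mb in both replicates, against 52.1 and 55.4. Relative to the rest, the number per Mb was 0.368 ± 0.0267 on 3L, 0.451 ± 0.0092 on X, 0.691 ± 0.0296 on 2L and 1.32 ± 0.0571 on 3R (SD, n = 2). On 3L the covered share was lower, relative to the rest, than the number of clusters in both replicates. On 2L, X and 3R it was higher in both.

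In 100 kb steps from the centromere end, 3 different profiles appeared. On 3L the inner 1 Mb was nearly free of clusters, at 2.06% and 1.77% in the replicates, and the outer 1 Mb held 11.9% and 11.1%. None of the 10 inner steps of 3L exceeded 11.8% in either replicate, and the highest step of the 3L end, 1700 to 1800 kb from the end, held 36.8% and 35.0%. On 2L coverage was 9.33% and 8.05% in the inner 1 Mb and 20.0% and 18.5% in the outer 1 Mb. Its highest step lay at 1700 to 1800 kb with 66.9% and 62.3%, and the step from 100 to 200 kb still held 31.5% and 23.5%. The 2L end was thus not free of clusters up to its last 100 kb. On X the inner and outer 1 Mb were alike in replicate 1, at 7.31% and 7.35%, and stood at 5.08% and 6.21% in replicate 2. A single X step, 500 to 600 kb from the end, held 38.2% and 32.5%, and no other X step exceeded 21.8% in either replicate. The replicate-set list differed on X, with 10.6% in the inner and 19.7% in the outer 1 Mb. There 4 X steps exceeded 30%, the highest at 1600 to 1700 kb with 46.0%, above the 43.9% at 500 to 600 kb.

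**Figure D2:**
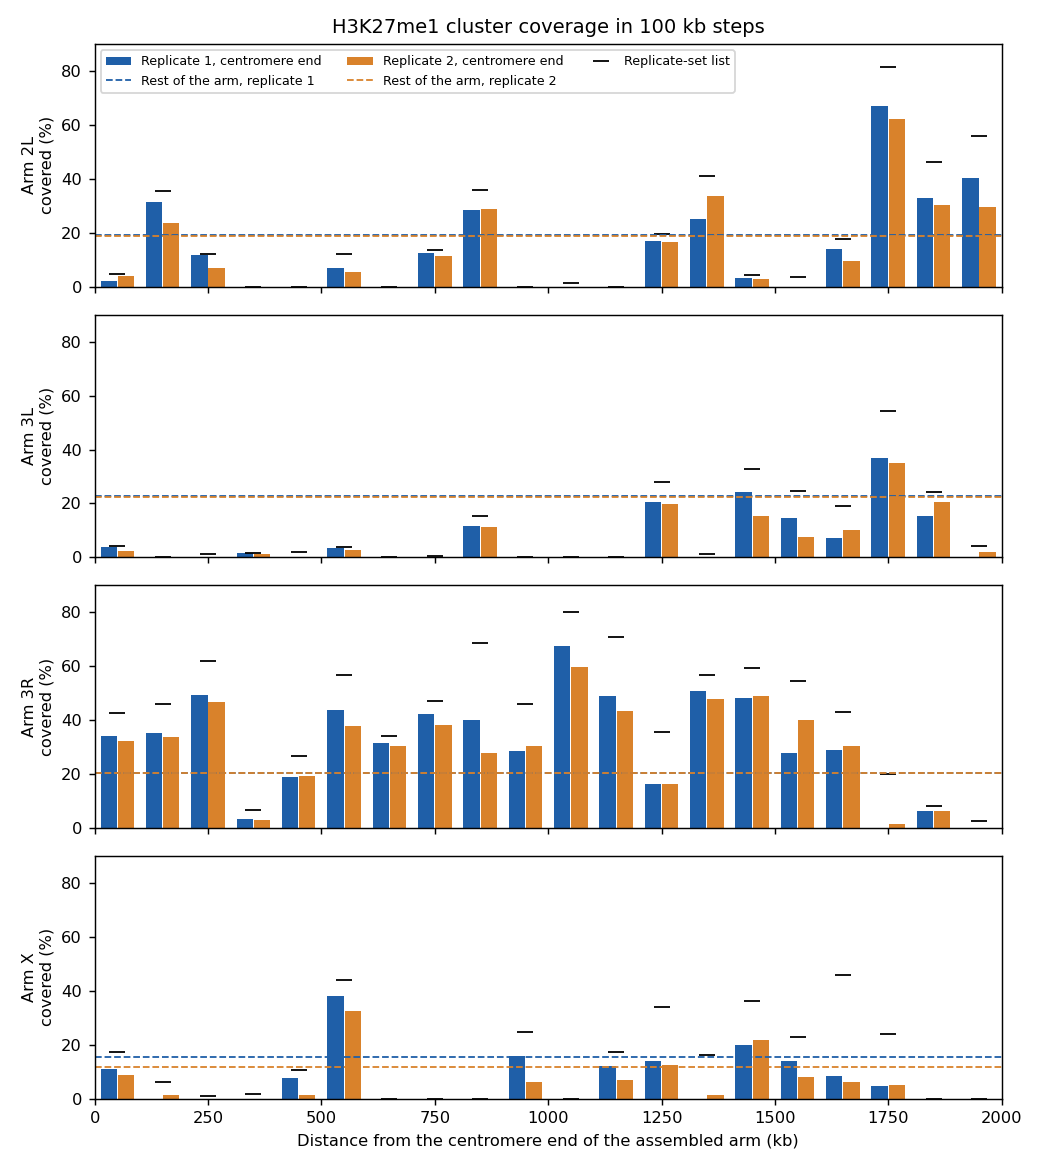
Share of each 100 kb step lying in H3K27me1 clusters (%, y axis) against the distance from the centromere end of the assembled arm (kb, x axis), for arms 2L, 3L, 3R and X. Blue and orange bars are replicates 1 and 2, black ticks the replicate-set list and dashed lines the share of the rest of the arm; the 3R bars stay mostly above their lines up to 1700 kb and the 3L bars mostly below.

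The 3R end showed the reverse. Its inner 1 Mb was covered to 32.7% and 30.0% and its outer 1 Mb to 29.5% and 29.5%. Of the first 17 steps from the 3R end, 14 exceeded the covered share of the rest of 3R in both replicates. The first step, next to the assembled end itself, held 34.0% and 32.2%. The highest step, 1000 to 1100 kb, held 67.5% and 59.8%. The last 300 kb of the span held few clusters in the replicates, with 0% and 1.39%, 6.29% and 6.43%, and 0% and 0% in the 3 steps. The replicate-set list held 20.2%, 8.35% and 2.57% there, with 12 clusters in the first of these steps. By the same measure 6 of 20 steps on 2L, 2 of 20 on X and 1 of 20 on 3L exceeded the share of the rest of their arm in both replicates. Spearman's rho between coverage and distance from the end over 20 steps, given as a description, was 0.40 and 0.38 on 2L, 0.42 and 0.53 on 3L, -0.32 and -0.21 on 3R, and 0.11 and 0.05 on X. The negative values on 3R include the 3 steps with few clusters in the last 300 kb of the span. They do not show a steady rise towards the centromere. Steps of 1 arm share a library and neighbouring chromatin.

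Both replicates gave nearly the same profile. Across the 80 steps of the ends, Pearson's r between the replicates was 0.978 as a description, and the largest difference in any step was 12.5 percentage points. No cluster base of either replicate fell in 25 of the 80 steps (31.2%), against 9.35% of the 898 steps in the rest of the arms and 11.1% of all 978 steps. The empty steps numbered 9 of 20 on 3L, 8 on X, 7 on 2L and 1 on 3R, and up to 3 followed each other on 2L, 3L and X. A further 4 steps were empty in replicate 1 only. The share of steps more than 30% covered was 21.2% and 22.5% in the ends and 24.4% and 21.9% in the rest of the arms. In the replicate-set list it was 33.8% in the ends and 46.5% in the rest. Most of the steps behind the value of the ends were on 3R, with 11 and 13, against 4 and 3 on 2L and 1 on each of 3L and X.

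Long stretches without a cluster made up most of the 3 sparse ends. A stretch was counted where no cluster lay over at least 50 kb. Such stretches held 83.8% and 78.9% of the 3L end in replicates 1 and 2, against 41.4% and 38.6% of the rest of 3L. They held 74.5% and 78.3% of the X end, against 43.6% and 49.7% of the rest of X. They held 62.3% and 59.4% of the 2L end, against 49.2% and 47.7% of the rest of 2L. On 3R they held 27.4% and 24.8% of the end, against 45.4% and 45.5% of the rest. In the inner 1 Mb the share reached 95.04% and 95.13% on 3L, 83.7% and 85.8% on X and 75.1% and 75.4% on 2L, and was 23.6% and 23.6% on 3R.

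Counting stretches free of clusters in both replicates, 26 touched the ends, or 3.22 per Mb, and 334 lay in the rest of the arms, or 3.72 per Mb. Their median length was 167 kb at the ends and 82.4 kb in the rest. The number per Mb differed in direction between arms, with 3.91 at the 3L end against 3.47 in the rest of 3L, and 2 at the 3R end against 3.94 in the rest of 3R. In the replicate-set list the stretches were more frequent at the ends, at 4.09 per Mb against 2.98, and their medians were closer, at 90.6 kb against 78.6 kb. At least 200 kb long were 10 of 26 at the ends and 27 of 334 in the rest. On 3L the longest ran from 23337806 to 23709847 (372 kb), followed by 24226002 to 24531529 (306 kb), which reaches to within 12.03 kb of the assembled end. On 2L the longest ran from 21760232 to 22122236 (362 kb), and the next from 22477507 to 22734741 (257 kb). On X they ran from 21500737 to 21849555 (349 kb) and from 20395314 to 20682266 (287 kb), the last of which crosses the limit of the span. On 3R the longest, 1833188 to 2168652 (335 kb), also crosses the limit, and the next ran from 314019 to 464404 (150 kb). The longest stretch in the rest of the same arm was 506 kb on 3L, 399 kb on 2L, 404 kb on 3R and 299 kb on X. The longest stretch of the X end was thus longer than any in the rest of X, and those of the other ends were not. For X this also held in replicate 1 (439 against 415 kb), replicate 2 (359 against 342 kb) and the replicate-set list (346 against 283 kb).

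**Figure D3:**
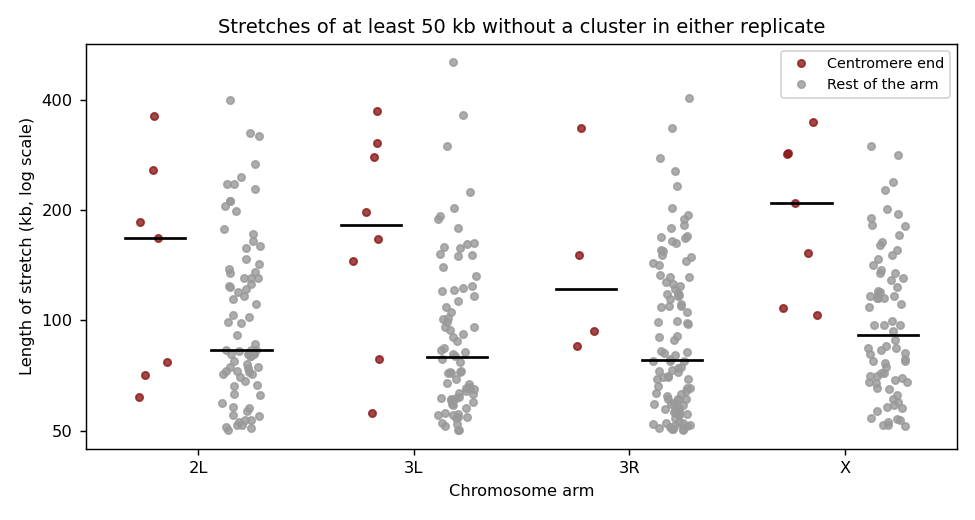
Length of each stretch of at least 50 kb without a cluster in either replicate (kb, log scale), for the centromere end (dark red, left of each pair) and the rest (grey, right) of each arm. Black lines are medians; all 7 stretches of the X end are over 100 kb, and 3 of the 8 of the 3L end are over 200 kb.

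The replicate-set list placed some clusters in these stretches. In the X stretch from 21011354 to 21119368 it held 8 clusters over 14.8 kb, and in the 3R stretch from 1729798 to 1823263 it held 9 over 13.8 kb. In the other 24 stretches it covered at most 5.17 kb each, and in the longest 3L stretch 0.091 kb. In that list stretches of at least 50 kb held 70.2% of the 3L end against 26.6% of the rest, 65.0% against 26.4% on X, 57.7% against 33.6% on 2L and 19.4% against 32.5% on 3R.

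Between the stretches, coverage of the sparse ends was closer to that of their arms. Outside stretches of at least 50 kb, the share in clusters was 39.8% and 33.7% at the 2L end, against 37.6% and 35.7% in the rest of 2L. It was 42.0% and 30.5% at the 3L end, against 38.7% and 36.5%, and 28.4% and 25.7% at the X end, against 27.5% and 23.5%. The ratio of end to rest over these 3 arms was 1.00 ± 0.0746 (SD, n = 2), compared with 0.492 ± 0.0169 when the stretches were included. On 3R the shares were 42.8% and 39.5% at the end, against 37.5% and 37.6%, a ratio of 1.10 ± 0.0646 (SD, n = 2). The replicates lay on opposite sides of 1 on 2L and 3L, so no difference in either direction held there. In the replicate-set list the 3L end was lower, at 36.8% against 45.9% in the rest. The other ends were higher there, at 46.7% against 43.4% on 2L, 42.8% against 37.8% on X and 53.8% against 44.7% on 3R. The stretches are defined by the same clusters, which raises the remaining share both at the ends and in the rest.

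The marked sequence between the stretches formed islands. Clusters with gaps under 20 kb between them were joined into 1 island. Replicate 1 had 55 islands at the ends, of 2194 kb in all, and replicate 2 had 61, of 2165 kb. Each of the 55 islands of replicate 1 met an island of replicate 2, and 55 of the 61 of replicate 2 met 1 of replicate 1. The 6 islands of replicate 2 with no partner held 1 or 2 clusters each. Islands were small on the sparse arms, with median lengths in replicates 1 and 2 of 8.93 and 11.1 kb on 3L, 17.3 and 16.6 kb on 2L and 25.4 and 24.6 kb on X, against 59.4 and 47.97 kb on 3R. The largest island of 3R, 998962 to 1222889 in replicate 1, held 31 clusters over 224 kb, and replicate 2 held 25 clusters over 224 kb at 999307 to 1223019. Where 1 island of each replicate met only the other (46 pairs), the 92 edges differed by a median of 382 bp. Of these edges, 52 (56.5%) differed by at most 500 bp. Islands were not formed in the rest of the arms. Whether this overlap and these edges are particular to the ends is therefore not known.

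Within the inner 1 Mb of 3L, 5 islands were found in both replicates. The one nearest to the end was a single cluster at 24531530 to 24535307 in replicate 1, 8.25 kb from the assembled end, with a score of 0.77. In replicate 2 it lay at 24532189 to 24534457 with a score of 0.69. The next inward stood alone between 2 long stretches, at 24224320 to 24225888 in replicate 1 and 24224584 to 24226001 in replicate 2, only 1.57 and 1.42 kb wide, with scores of 0.59 and 0.54. The island at 24022888 to 24026310 in replicate 1 was also 1 cluster in each replicate, with scores of 0.66 and 0.75. On 2L the cluster nearest to the end lay 47.0 kb from it in replicate 1 and 46.9 kb in replicate 2. On 3R the nearest began 5.52 and 5.76 kb from the end, and on X it lay 3.69 and 9.40 kb from it. All 4 arms thus carried a cluster within 50 kb of the assembled end in both replicates.

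The widest domain of the ends lay on 3R, from 736578 to 770960 in the replicate-set list (34.4 kb). Replicate 1 covered 99.9% of it with 1 cluster and replicate 2 covered 94.7% with 2. Its set score was 1.19, and the highest replicate scores in it were 1.24 and 1.20. The highest-scoring 3R clusters found in all lists were 1496232 to 1505510 (9.28 kb, set score 1.37) and 613078 to 629406 (16.3 kb, 1.35). Their replicate scores were 1.36 and 1.45 in the first and 1.39 and 1.37 in the second. The next widest on 3R, 498022 to 516896 (18.9 kb), lay in clusters over 75.9% of its length in replicate 1 but over 42.7% in replicate 2, so the replicates differed on it. The third, 1058592 to 1076128 (17.5 kb), was covered to 98.4% and 96.6%, inside the largest island.

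On 2L the widest was 21268656 to 21293724 (25.1 kb), covered to 89.8% and 91.5%, in the outer 1 Mb. The domain 20997656 to 21020998 (23.3 kb) crosses the limit of the span and was covered to 72.4% and 73.8%. The third, 21740418 to 21755980 (15.6 kb), lay in the island next to the longest stretch of 2L and was covered to 95.5% and 91.9%. The highest scores of the 2L end were those of 21665132 to 21676542 (1.08 in the set list), 21179570 to 21183160 (1.02) and 21238052 to 21249942 (1.00). On 3L the widest, 23119962 to 23142610 (22.6 kb), was covered to 85.0% by 6 clusters in replicate 1 and to 42.4% by 4 in replicate 2. The next, 23309580 to 23330722 (21.1 kb), was covered to 83.2% and 84.7%, and 22767008 to 22779306 (12.3 kb) to 81.5% and 72.8%. The 3L clusters with the highest set scores were 22735262 to 22741842 (1.02) and 22790310 to 22797694 (1.00), followed by the widest 3L domain (0.78). On X the widest was 21892376 to 21910042 (17.7 kb, 85.7% and 76.4%). The next was 21858620 to 21869846 (11.2 kb, 99.5% and 67.1%). Both lay in the step from 500 to 600 kb. The third, 21161892 to 21170292 (8.40 kb, 74.9% and 80.3%), also had the second highest X score (1.07). The highest was that of 20982178 to 20988332 (1.17), and 20894016 to 20899056 ranked after both (1.05). The choice took only set clusters found in both replicates, so their presence in the replicates is no result.

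Cluster widths at the ends did not differ from the rest in a direction both replicates shared, except on 3R. There the median width was 3354 and 3150 bp in replicates 1 and 2, against 2891 and 2716 bp in the rest of 3R, a difference of 448 ± 20.9 bp (SD, n = 2). It was 228 bp in the replicate-set list and 44.8 bp for the upper 50% of clusters by score. Against the telomere end of 3R it was 132 ± 297 bp (SD, n = 2), and there the replicates took opposite signs. On 2L the median was 3098 and 2407 bp, against 2873 and 2616 bp, higher at the end in replicate 1 and lower in replicate 2. On 3L it was 2730 and 2021 bp, against 2690 and 2610 bp, and on X 2082 and 2212 bp, against 2218 and 2059 bp. Broad clusters of 10 kb or more numbered 14 and 10 at the 4 ends (4.68% and 3.28% of their clusters), against 208 and 169 in the rest (4.36% and 3.51%). The 3L end held none in either replicate, of 42 and 49 clusters, while the rest of 3L held 63 and 59, or 4.75% and 4.23%. Its widest clusters measured 9.35 and 9.04 kb in the replicates. In the replicate-set list 4 of its 63 clusters were that broad (6.35%), against 6.73% in the rest of 3L.

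The authors' score per cluster was similar at the ends and in the rest. It has no stated unit and was used as the authors gave it. The median score was 0.72 and 0.71 at the 4 ends, against 0.72 and 0.72 in the rest. On 3L it was 0.67 and 0.63, against 0.69 and 0.69, and on 3R 0.73 and 0.72, against 0.71 and 0.69. On 2L it was 0.70 and 0.67, against 0.70 and 0.69, and on X 0.77 and 0.86, against 0.77 and 0.83. No arm differed by more than 0.06 in either replicate, and the quartiles overlapped on each arm. Of the highest-scoring 5% of each list, 10 of 299 clusters of the ends in replicate 1 (3.34%) and 14 of 305 in replicate 2 (4.59%) were members, against 4.06% and 4.30% of clusters in the rest. The 2L end had none in either replicate, of 68 and 76 clusters, against 4.53% and 3.86% in the rest of 2L. In the replicate-set list it had 1 of 83 (1.20%), against 3.19%. The 3L end had none of 42 in replicate 1, against 4.60% in the rest of 3L. In replicate 2 it had 2 of 49 (4.08%), against 4.73%. Wider clusters scored higher at the ends as elsewhere. Spearman's rho, given as a description, was 0.72 and 0.73 across clusters of the ends and 0.75 and 0.70 in the rest. By arm it was 0.49 and 0.71 at the 3L end, against 0.81 and 0.80 in the rest of 3L. At the 2L end it was 0.87 and 0.85, against 0.79 and 0.80. It was 0.77 and 0.79 against 0.81 and 0.81 on 3R, and 0.63 and 0.68 against 0.71 and 0.63 on X.

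**Figure D4:**
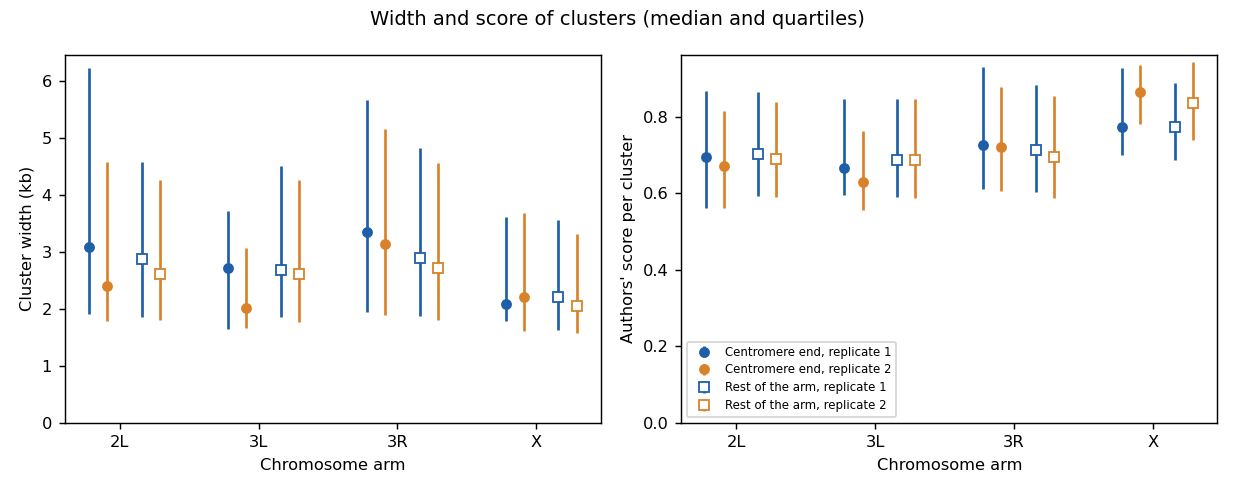
Median width (left, kb) and median authors' score (right) of clusters in the centromere end (filled circles) and the rest (open squares) of each arm, in replicate 1 (blue) and replicate 2 (orange), with bars from the lower to the upper quartile. The bars of ends and rest overlap on every arm in both panels.

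Members were found in the other replicate about as often as other clusters. Of the 299 replicate 1 clusters at the ends, 235 overlapped a replicate 2 cluster by at least 1 bp (78.6%, exact 95% interval 73.5% to 83.1%), against 79.6% in the rest of the arms and 80.3% in the whole list. Of the 305 replicate 2 clusters, 255 overlapped a replicate 1 cluster (83.6%, 79.0% to 87.6%), against 81.8% in the rest and 82.4% in the whole list. By arm the share of replicate 1 clusters was 83.8% at the 2L end, 85.7% at the 3L end, 81.0% at the 3R end and 57.4% (42.2% to 71.7%) at the X end. The rest of X stood at 62.6%, so in replicate 1 X was low along its length. The share of replicate 2 clusters was 86.8%, 75.5%, 88.0% and 71.1% at the ends of 2L, 3L, 3R and X. The rest of X stood at 79.7% in replicate 2, near the 81.8% of the rest of the arms. The X end differed from the rest of X by -5.14 and -8.67 points in replicates 1 and 2. Its exact interval in replicate 2 (54.1% to 84.6%) also held the value of the rest. Of the 64 and 50 members found in 1 replicate only, the median width was 1598 and 1536 bp, against 3574 and 3094 bp for the shared ones. The intervals cover counting error only and take clusters as independent.

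For 169 members a cluster of replicate 1 and a cluster of replicate 2 overlapped each other and nothing else. Their scores ranked alike, with a Spearman's rho of 0.86 as a description. The median of the differences, replicate 2 minus replicate 1, was -0.02, small beside their SD of 0.11. The score has no stated unit, so no difference in level between the lists is drawn from it. Replicate 2 covered 0.942 times the length of replicate 1 at the 3L end, 0.912 times at the 2L end, 0.955 times at the 3R end and 0.770 times at the X end. In the rest of the arms the ratios were 0.989, 0.979, 1.00 and 0.763 on 3L, 2L, 3R and X. The lower coverage of X in replicate 2 was thus as large at the end as along the arm, while the autosomal ends were each a little lower in replicate 2 than their arms. Of the length covered by either replicate, 69.4% was covered by both at the ends and 67.4% in the rest.

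Of the 453 replicate-set clusters at the ends, 204 (45.0%) met clusters of both replicates, against 44.2% in the rest of the arms and 45.6% in the whole list. A further 92 met 1 replicate and 157 (34.7%) met neither. By arm the share found in both was 61.4% at the 2L end, against 46.2% in the rest of 2L, 41.3% against 49.4% on 3L, 49.3% against 49.3% on 3R and 25.5% against 30.9% on X. Clusters found in both held 73.7% of the covered length of that list at the ends and those in neither 13.6%.

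On 2L the limit falls inside a run, with replicate 1 clusters centred 4.95 kb inside and 0.764 kb outside it. On 3R the nearest replicate 1 clusters were 170 kb away on both sides, and on X 283 kb inside and 6.99 kb outside. On 3L they were 209 kb inside and 104 kb outside in replicate 1, and 14.4 kb inside and 31.6 kb outside in replicate 2.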

How the data were processed

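H3K27me1 ChIP-seq clusters of 2 ChIP replicates and of the replicate set were used as the authors deposited them. Per the file headers, coordinates are FlyBase release 5 and each line gives the start and end of a significantly enriched region and the authors' score for it. Per the submitters' processing notes, Bowtie 0.12.7 was used, and per the labels each Input library served 1 replicate. Caller, threshold and how replicates were combined: not given in the sources used here. The lists hold no read counts, so the depth is unknown. Arm lengths came from the file headers. Covered lengths count each base once, clipped to the span. Distances run from the centromere end of the assembled arm. Steps of 100 kb, stretches of 50 kb and island gaps of 20 kb were used. Named regions were the 3 widest and the 3 highest-scoring set clusters per end that met both replicates, the cluster nearest to each end, the 2 longest stretches and the clusters beside each limit. Members and lists were chosen with earlier results of these data known. The gene table at hand is of release 6, so no gene or sequence was assigned, and whether reads align uniquely there was not tested. The tools were matplotlib 3.10.9, scipy 1.17.1, pandas 2.3.3 and numpy 2.4.6 under Python 3.11.15. Covered length, empty length, overlap and membership were checked against base-by-base counts on simulated lists. The alternatives were other spans, backgrounds, scores, gaps, overlaps and steps.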

Additional observations from a re-analysis of the deposited data

Results flagged for a closer look

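The ends of the 4 arms differed from the rest of their arms in opposite directions in both replicates, a difference between arms that was not tested. The covered share of the end relative to the rest was 1.49 on 3R, and 0.759 on 2L, 0.294 on 3L and 0.470 on X. The number of clusters per Mb was 1.32 times that of the rest on 3R, and 0.691, 0.368 and 0.451 times on 2L, 3L and X. Stretches of at least 50 kb without a cluster took a smaller share of the end than of the rest on 3R, by -19.4 percentage points, and a larger one on 2L (12.4 points), 3L (41.4 points) and X (29.7 points).

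The median score was higher at the end in both replicates on 3R (0.0203) and X (0.0154) and lower on 2L (-0.0134) and 3L (-0.0387), as end minus rest. In the replicate-set list the signs were the opposite on 2L (0.0302), 3R (-0.0076) and X (-0.00053). These differences are small beside the quartiles of the scores, and on X replicate 1 differed by less than 0.01.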

How the results depend on the processing

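The direction of the covered share per arm (end over rest, mean of the replicates) held on all 4 arms for the upper 50% by score, the last 1 Mb, the telomere end of the same arm as background and whole clusters by midpoint. Outside empty stretches it became 1.07 over the 4 ends, 1.00 on 2L and 1.06 on X, each on the other side of 1. It was 0.961 on 3L and 1.10 on 3R. The stretches are defined by the same clusters, and removing them raises the share both at the ends and in the rest. The cause of these turns was not tested. For the last 1 Mb the ratio was 0.634 over the 4 ends, 0.459 on 2L, 0.0868 on 3L and 0.462 on X. Against the telomere ends it was 0.644, 0.713 on 2L, 0.224 on 3L and 0.342 on X. For the upper 50% by score it was 0.235 on 3L, 1.55 on 3R and 0.466 on X.

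Clusters per Mb (0.701 over the 4 ends) became 0.684 for the upper 50%, 0.540 for the last 1 Mb, 0.639 against the telomere ends and 0.722 with gaps under 1000 bp merged. The median width difference, end minus rest (156 bp), became 365 bp for the upper 50% and 430 bp for the last 1 Mb, and turned to -89.2 bp against the telomere ends. The median score difference (-0.0053) became 0.0118, 0.0091, -0.0451 and -0.0162 for the upper 50%, the last 1 Mb, the telomere ends and merged gaps; it turned on 2L for the upper 50% (0.0043) and on X against the telomere end (-0.00093). The cause of the turns in width and score was not tested.

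The excess of empty stretches at the 4 ends (16.2 percentage points) was 9.505 for the upper 50%, 24.2 for the last 1 Mb, 11.2 with stretches of at least 20 kb and 25.8 with at least 100 kb. The share of members found in the other replicate, end minus rest (0.423 points), was 6.36 for the last 1 Mb. On 2L it turned to -6.80 for the upper 50% and -2.27 at 50% overlap, and on X to 4.08 for the upper 50%, 2.03 for the last 1 Mb and 0.973 at 50% overlap. These turns rest on few clusters and the cause was not tested. Of the set clusters 39.3% were covered to at least 50% in each replicate. Islands averaged 58 per replicate and 28.0 with 50 kb between them. Leaving out each replicate gave 0.742 to 0.766 for the covered share, 0.696 to 0.705 for clusters per Mb, 17 to 295 bp for width, -0.0122 to 0.0016 for score and 15.2 to 17.2 points for empty stretches. Single-arm width differences near 0 changed sign as well: 2L (8 bp) to -144 bp against the telomere end and -73.2 bp with merged gaps, 3L (-275 bp) to 148 bp for the last 1 Mb, and X (8.5 bp) to -29.8 bp and -267 bp for the telomere end and merged gaps. Leaving out 1 replicate also changed the sign of the width difference on 2L, 3L and X. The sharing difference changed sign on 3L (-2.95 points) for the last 1 Mb (16.6), and on 3R (1.13 points) for the upper 50% (-0.312) and the telomere end (-0.841). The width difference on 3R (448 bp) became 44.8 bp for the upper 50% and 132 bp against the telomere end. No paired analysis was possible because the Input libraries have no list here, so ChIP and Input, which share replicate numbers, could not be compared. The end and the rest were compared within each ChIP library.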

Other observations

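Among the 157 replicate-set clusters of the ends that met no cluster of either replicate, 2 scored above 1, and they were chosen after their values were seen. The 3R cluster from 873312 to 874312 (1.00 kb) had a score of 3.22, and the X cluster from 22013792 to 22014806 (1.01 kb) had a score of 2.22. In the rest of the 4 arms, 7 of 2565 such clusters scored above 1. The highest score of any member in the replicates was 1.39 in replicate 1 and 1.45 in replicate 2.

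On 2L the set list alone held a cluster from 21464518 to 21466008 (1.49 kb) with a score of 0.95, inside the stretch from 21387912 to 21574051 in which neither replicate had a cluster. The median score of set clusters found in neither replicate was 0.43 at the ends and 0.43 in the rest.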
